A study of Homo sapiens with 6 samples.

Results

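The chemokine system of A375, an established human melanoma cell line, was examined after knockdown of ERK3, an atypical MAP kinase whose gene is MAPK6. Its members are the genes whose symbol in the array annotation begins with CCL or CXCL and a number, or names a CCR, CXCR or ACKR receptor, together with CX3CL1, CX3CR1, XCL1, XCL2, XCR1 and CCRL2. This gave 60 of the 17687 genes measured, 38 ligands and 22 receptors, each with 1 probe set. In the siERK3 group the cells were transfected with a predesigned siRNA that targets ERK3, and in the siCon group with a commercial negative control siRNA, and total RNA was taken 3 days later. Each group had 3 Affymetrix Clariom S Pico arrays. The labels name 1 kind of siRNA for each group. Nothing in them tells separate cultures from repeated arrays, so the spread behind the p-values may be purely technical. RNA was taken from the whole culture, so fewer cells with a transcript and less transcript per cell cannot be told apart.

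Chemokines are small secreted proteins that direct cell migration along gradients. CXC and CC ligands are named after the spacing of conserved cysteines, and they act on G protein-coupled receptors, while atypical receptors bind ligands without G protein coupling and mostly remove or transport them. CXC ligands that carry a Glu-Leu-Arg (ELR) motif act mainly on CXCR2, and some also on CXCR1, and so attract neutrophils. Melanoma cells are known to secrete several of these ligands, CXCL1 among them, which was first isolated as a melanoma growth factor, and inflammatory chemokine genes are classical targets of NF-kB.

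The knockdown was visible in MAPK6 itself, at 13.45, 13.55 and 13.62 on the log2 scale in siCon and 10.54, 10.32 and 10.67 in siERK3. Array medians lay between 7.06 and 7.10. The background level was set for each array as the 95th percentile of its 612 negative control probe sets, 7.32 to 7.56, and 45.6% to 47.6% of all genes exceeded it. In limma's fit over all genes, with Benjamini-Hochberg adjustment and a threshold of 0.05, 90 genes (0.509%) were called lower and 79 (0.447%) higher in siERK3. A principal component analysis over all genes set siCon 2 (-26.5) and siERK3 3 (-15.2) away from the remaining arrays (4.35 to 21.7) along its second axis. Of the marker lists for the cell type, melanoma markers such as SOX10 (11.78 in siCon) and MITF (9.77) lay above background, with 5 of 10 above it. PMEL (4.27 in siCon), MLANA (4.32), TYR (3.65), TYRP1 (4.16) and PAX3 (7.10) lay below it on all arrays. Among leukocyte markers, which chemokine-producing blood cells would bring, 1 of 15 lay above background on at least 2 arrays of a group, LYZ, at 9.40 in siCon and 8.55 in siERK3 without overlap; its part in the results was not tested. PTPRC, the defining leukocyte marker, was at 4.03 and 4.19. The mean level of the leukocyte list was 5.18 to 5.33 in siCon and 5.11 to 5.17 in siERK3. Of 8 endothelial markers 0 lay above background. Of 7 fibroblast markers 3 did, 1 fell and 0 rose. LUM, a matrix proteoglycan, fell from 9.60 to 8.77 (adjusted p = 0.0441 in limma), a log2 change of -0.83 beside -0.85 for CCL2, and lost its call whichever of the 6 arrays was left out (adjusted p 0.0825 to 0.157). PDGFRB, a growth factor receptor, went the other way, from 6.91, below background, to 7.66 (adjusted p = 0.0631 in limma), and COL1A2 was at 8.11 and 7.90 with overlap. The mean level of the fibroblast list was 6.43 to 6.71 in siCon and 6.55 to 6.75 in siERK3, and the part of these markers in the results was not tested.

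A375 cells carried signal above background for 7 of the 60 members, all of them ligands: CXCL1, CXCL2, CXCL3, CXCL8, CCL2, CCL20 and CCL28. CCL20 and CCL2 fell after ERK3 knockdown, by point estimates of 1.80-fold for CCL2 and at least 2.19-fold for CCL20. These were 2 members called lower, where 0.509% of all genes were called lower, and 0 members were called higher. CXCL1, CXCL2, CXCL3 and CXCL8 were lower on every siERK3 array than on every siCon array, but none passed the test over all genes. CCL28 showed no such separation. The median log2 change was -0.05 over the 60 members and 0.00 over all genes.

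A member counted as above background when it exceeded that level on at least 2 of 3 arrays of a group, so CCL20, which did so only in siCon, had to be lower in siERK3 to be listed that way. Of the remaining 53 members, 53 lay at or below background on every array. With the 90th percentile of the negative controls as the level, CCL27 and CXCL16 were added and 9 members passed. With the 99th percentile, at 9.13 to 10.13, only CXCL1, CXCL8 and CCL2 passed. CXCL2, CXCL3, CCL20 and CCL28 are thus within the range of the brightest negative controls. Passing needed only 1 group. In siERK3, CCL2 (9.98, 9.71 and 9.71) and CXCL1 on array 3 (10.00) also lay within 9.13 to 10.13. Levels of different probe sets are not comparable with each other, so they are given only against the background and between groups.

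**Figure D1:**
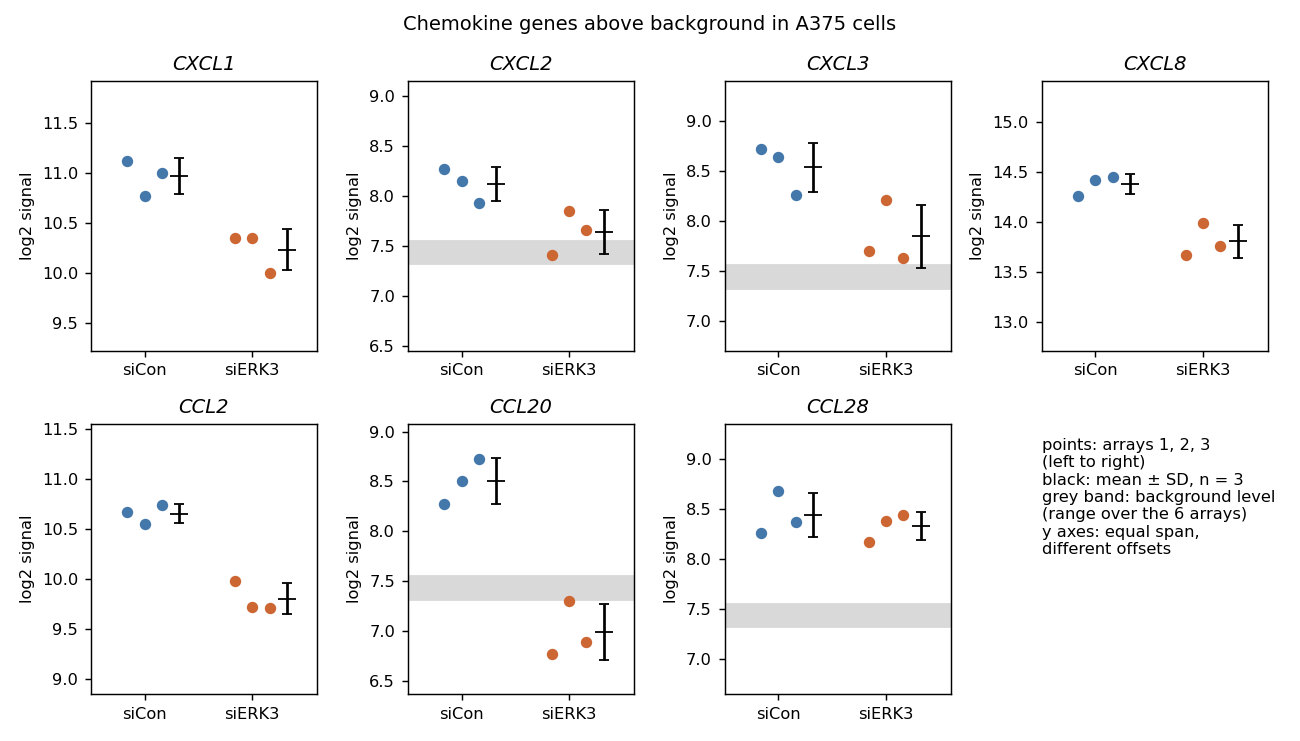
Log2 signal of the 7 chemokine genes above background on each of the 6 arrays, siCon in blue and siERK3 in orange, with mean and SD (n = 3) in black and the range of the background level over the arrays in grey. For every gene but CCL28 the 3 siERK3 arrays lie below the 3 siCon arrays; for CCL20 they also lie below background.

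Among the members, the ELR-bearing CXC ligands were the fullest class, with 4 of 6 above background. CXCL8, interleukin 8, the classical neutrophil attractant, measured 14.26, 14.42 and 14.45 in siCon and 13.67, 13.99 and 13.76 in siERK3. The groups did not overlap and lay 0.28 apart on the log2 scale. Its log2 change was -0.58 (SE 0.14), which left 67.1% of the control signal (95% confidence interval 53.7% to 83.9%), with an adjusted p of 0.115 in limma.

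CXCL1 measured 11.12, 10.77 and 11.01 in siCon and 10.35, 10.35 and 10.00 in siERK3, again with no overlap and a gap of 0.42. The log2 change was -0.74 (SE 0.16), or 60.1% of the control signal (46.7% to 77.3%), with an adjusted p of 0.0806 in limma. CXCL1 was called when the dimmest 30% of genes were left out of the test, and, together with CXCL8, when only genes above the median level were tested or when a mean-variance trend was fitted together with robust moderation.

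CXCL3 measured 8.71, 8.63 and 8.26 in siCon and 7.70, 8.20 and 7.62 in siERK3. Its groups were separated by only 0.05, since siERK3 2 came close to siCon 3. That gave -0.69 (SE 0.20) for the log2 change, with an adjusted p of 0.167 in limma.

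CXCL2 measured 8.27, 8.15 and 7.94 in siCon and 7.41, 7.85 and 7.66 in siERK3, with a gap of 0.09. That gave -0.48 (SE 0.16) for the log2 change, with an adjusted p of 0.246 in limma. CXCL1, CXCL2 and CXCL3 are close paralogs, and whether their probe sets share signal was not tested.

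The remaining ELR ligands among the members, CXCL5 and CXCL6, lay below background on all arrays. CXCL5 was at 5.39 ± 0.22 (SD, n = 3) in siCon and 5.46 ± 0.18 in siERK3, and CXCL6 at 5.04 ± 0.28 and 4.88 ± 0.11.

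All of these genes lie in 1 cluster on chromosome 4, where RefSeq (GRCh38.p14) orders 9 protein-coding genes as CXCL8, CXCL6, PF4V1, CXCL1, PF4, PPBP, CXCL5, CXCL3 and CXCL2. PF4V1, PF4 and PPBP are platelet-type CXC chemokines that keep older symbols and fall outside the members. The 4 genes above background in siCon did not form 1 block, and stood at the start (CXCL8), in the middle (CXCL1) and at the end (CXCL3 and CXCL2) of the row with probe sets below background between them. PF4 was at 4.43 ± 0.28 and 5.23 ± 0.42, PF4V1 at 5.37 ± 0.32 and 5.71 ± 0.15, and PPBP at 4.94 ± 0.19 and 4.92 ± 0.23, all below background. PF4 and PF4V1 had higher siERK3 values without overlap, and neither passed limma's test (adjusted p = 0.171 and 0.478).

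**Figure D2:**
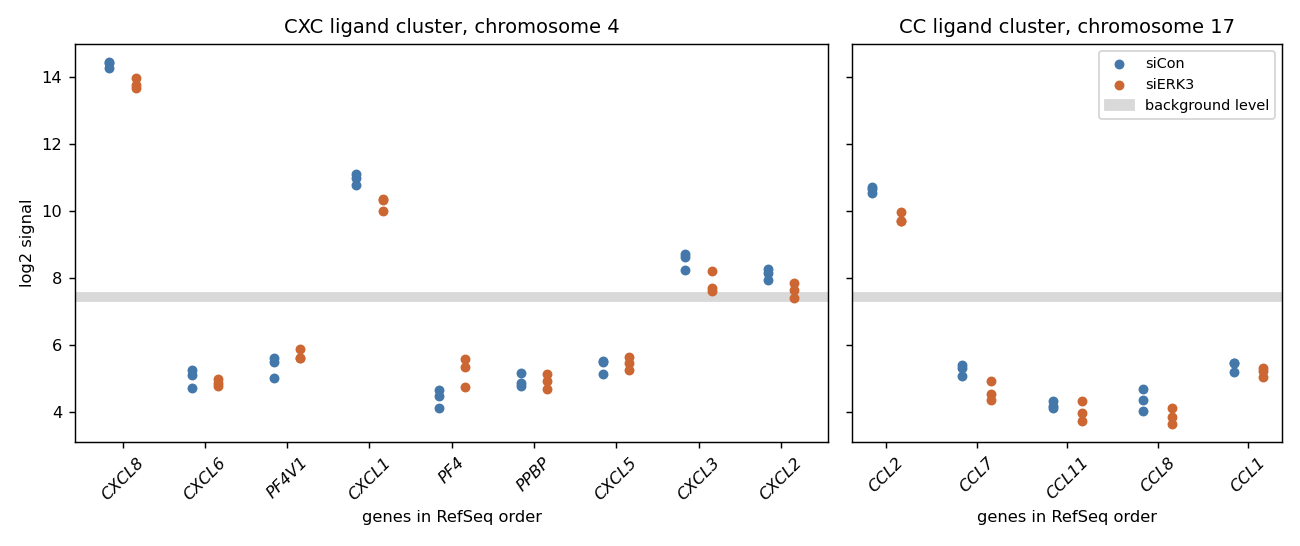
Log2 signal per array for the measured genes of the CXC ligand cluster on chromosome 4 and of the CC ligand cluster around CCL2 on chromosome 17, in RefSeq order, siCon in blue and siERK3 in orange. CXCL8, CXCL1, CXCL3, CXCL2 and CCL2 stand above the grey background band in siCon, and their neighbours stay below it in both groups.

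The sequences just before the annotated starts of these ligand genes are shown because NF-kB sites in this window are the textbook feature of the class. They are 150 bases from RefSeq (GRCh38.p14), 5′ to 3′ on the gene's strand and ending at the base before the start, at chr4:73740419-73740568 on the plus strand for CXCL8, chr4:73869243-73869392 on the plus strand for CXCL1, chr4:74099196-74099345 on the minus strand for CXCL2, chr4:74038690-74038839 on the minus strand for CXCL3, and at chr2:227813692-227813841 on the plus strand for CCL20. Capitals mark matches on either strand to an NF-kB core (GGAATTTCC), to a wider NF-kB pattern that contains it (GGNNTTTCC), to an AP-1 pattern (TGANTCA) and to a TATA box (TATAAA).
CXCL8: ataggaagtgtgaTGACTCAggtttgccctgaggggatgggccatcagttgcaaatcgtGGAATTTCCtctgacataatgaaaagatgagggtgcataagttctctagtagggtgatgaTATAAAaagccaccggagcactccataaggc
CXCL1: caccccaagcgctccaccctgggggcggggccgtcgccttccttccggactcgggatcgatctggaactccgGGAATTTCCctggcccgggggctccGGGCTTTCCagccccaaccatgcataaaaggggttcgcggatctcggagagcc
CXCL2: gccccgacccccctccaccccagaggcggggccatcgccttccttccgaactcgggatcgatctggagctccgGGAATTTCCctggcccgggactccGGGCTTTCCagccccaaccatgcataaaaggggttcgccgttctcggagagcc
CXCL3: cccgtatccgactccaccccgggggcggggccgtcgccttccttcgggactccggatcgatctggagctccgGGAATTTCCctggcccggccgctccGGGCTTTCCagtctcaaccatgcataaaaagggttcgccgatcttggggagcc
CCL20: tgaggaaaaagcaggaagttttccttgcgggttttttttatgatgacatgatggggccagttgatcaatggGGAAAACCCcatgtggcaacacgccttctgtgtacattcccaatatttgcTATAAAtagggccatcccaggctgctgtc

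The NF-kB core began 91 bases before the start in CXCL8, 78 in CXCL1 and CXCL3 and 77 in CXCL2. It occurs in 0.254% of 35092 RefSeq promoter windows of the same length. Among the 44 members with a promoter in the table it was found in 7, namely CXCL1, CXCL2, CXCL3, CXCL8, CXCL5, CXCL6 and CXCL11. Members were counted as genes, once if any window matched, while the share over RefSeq counts windows. CXCL5, CXCL6 and CXCL11 lay below background here, so the letters were present both in genes with signal and in genes without. The window of CCL2 was not searched here. CXCL1, CXCL2 and CXCL3 each held a further match to the wider pattern, GGGCTTTCC, 53 bases before the start. CCL20 lacked the core and had the wider pattern on the other strand, as GGAAAACCC, 79 bases before its start. The wider pattern occurs in 3.46% of windows and in 10 members. CXCL8 also carried the AP-1 pattern (4.16% of windows), 137 bases before the start, and CXCL8 and CCL20 the TATA box (6.71% of windows). The windows of CXCL1, CXCL2 and CXCL3 were alike at 86.1% to 88.7% of aligned positions, those of CXCL8 and CXCL1 at 45.1%.

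Of the CC ligands, 3 of 21 lay above background. CCL20, the ligand of CCR6 that attracts lymphocytes and dendritic cells, measured 8.27, 8.51 and 8.73 in siCon and 6.78, 7.31 and 6.90 in siERK3. All siCon arrays lay above background and all siERK3 arrays below it, with 0.96 between the groups. The fitted log2 change was -1.51 (SE 0.18; 95% confidence interval -1.93 to -1.09) with an adjusted p of 0.0135 in limma. Against the background level the point estimate of the fall was at least 2.19-fold. That bound leaves out sampling error, and the upper end of the interval, -1.09, is a somewhat smaller fall.

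CCL2, which attracts monocytes through CCR2, measured 10.67, 10.55 and 10.74 in siCon and 9.98, 9.71 and 9.71 in siERK3. The groups lay 0.57 apart, with an SD of 0.10 in siCon and 0.15 in siERK3. CCL2 fell to 55.5% of the control signal (44.6% to 69.1%), a log2 change of -0.85 (SE 0.14) with an adjusted p of 0.0331 in limma. With 1 array left out, CCL20 kept its call in 3 of 6 fits and lost it without siCon 3, siERK3 1 or siERK3 3 (adjusted p up to 0.0693 in limma), and CCL2 lost it whichever of the 6 arrays was left out (adjusted p 0.0689 to 0.143). Without moderation of the variance neither was called (adjusted p = 0.141 and 0.122). Without siCon 2 and siERK3 3 together, the arrays set away on the second axis, 0 members were called, where limma called 7 genes in all.

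CCL28, a mucosal chemokine that binds CCR10, was the member above background whose groups overlapped. It measured 8.26, 8.68 and 8.37 in siCon and 8.17, 8.38 and 8.44 in siERK3. Its log2 change was -0.11 (SE 0.16), and the interval of -0.46 to 0.25 reaches down to nearly the change of CXCL2.

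The genes next to CCL2 on chromosome 17 in RefSeq order are CCL7, CCL11, CCL8, CCL13 and CCL1, of which CCL13 was not analysed here. CCL7, another monocyte attractant and the nearest neighbour, was at 5.32, 5.40 and 5.07 in siCon and 4.94, 4.55 and 4.36 in siERK3. Its values did not overlap, but all lay below background, so no fold is given (adjusted p = 0.155 in limma). CCL8 was at 4.37 ± 0.33 and 3.88 ± 0.24, CCL11 at 4.21 ± 0.11 and 4.01 ± 0.31, and CCL1 at 5.38 ± 0.15 and 5.19 ± 0.13.

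The other ligands lay below background throughout. Among them were CXCL12, the ligand of CXCR4, at 5.87 in both groups, the interferon-induced CXCR3 ligands CXCL9, at 3.84 and 3.86, and CXCL10, at 5.76 and 5.82, and the T cell attractant CCL5, at 4.54 and 4.76. CXCL11, the third CXCR3 ligand, was at 4.79 ± 0.17 and 4.17 ± 0.31 without overlap, and CCL18 at 5.11 ± 0.07 and 4.65 ± 0.09 without overlap; neither passed limma's test (adjusted p = 0.184 and 0.151). CXCL16, a membrane-bound ligand of CXCR6, came nearest to background, at 6.94 to 7.28. CX3CL1, the membrane-bound ligand of CX3CR1, was at 4.26 and 3.97, and the XC ligands XCL1 and XCL2 at 4.53 and 4.79 and at 3.94 and 4.09.

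Over the 60 members, 10 were lower and 0 higher at an unadjusted p under 0.05, where 6.50% of all genes were lower and 6.98% higher. All 10 were ligands. Of the 10, 6 lay above background, and CCL7, CCL8, CCL18 and CXCL11 did not. For 9 members the siERK3 values lay below the siCon values without overlap, and for 1, CXCR4, above them, where 9.70% and 10.1% of all genes did. Among the 7721 genes above background on all 6 arrays, 15.0% were lower without overlap, 8.96% were lower at an unadjusted p under 0.05 and 0.790% were called lower. Of the 6 members of that kind the counts were 5, 5 and 1. An unadjusted p carries little weight here, since 12.4% of the negative controls reached one under 0.05, close to the 13.1% of all named probe sets. The adjusted p-values were computed from limma p-values of the same kind. The share of false calls among the genes called may therefore exceed the threshold of 0.05. Within siERK3, array 2 was highest for 5 of the 6 separated ligands above background.

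**Figure D3:**
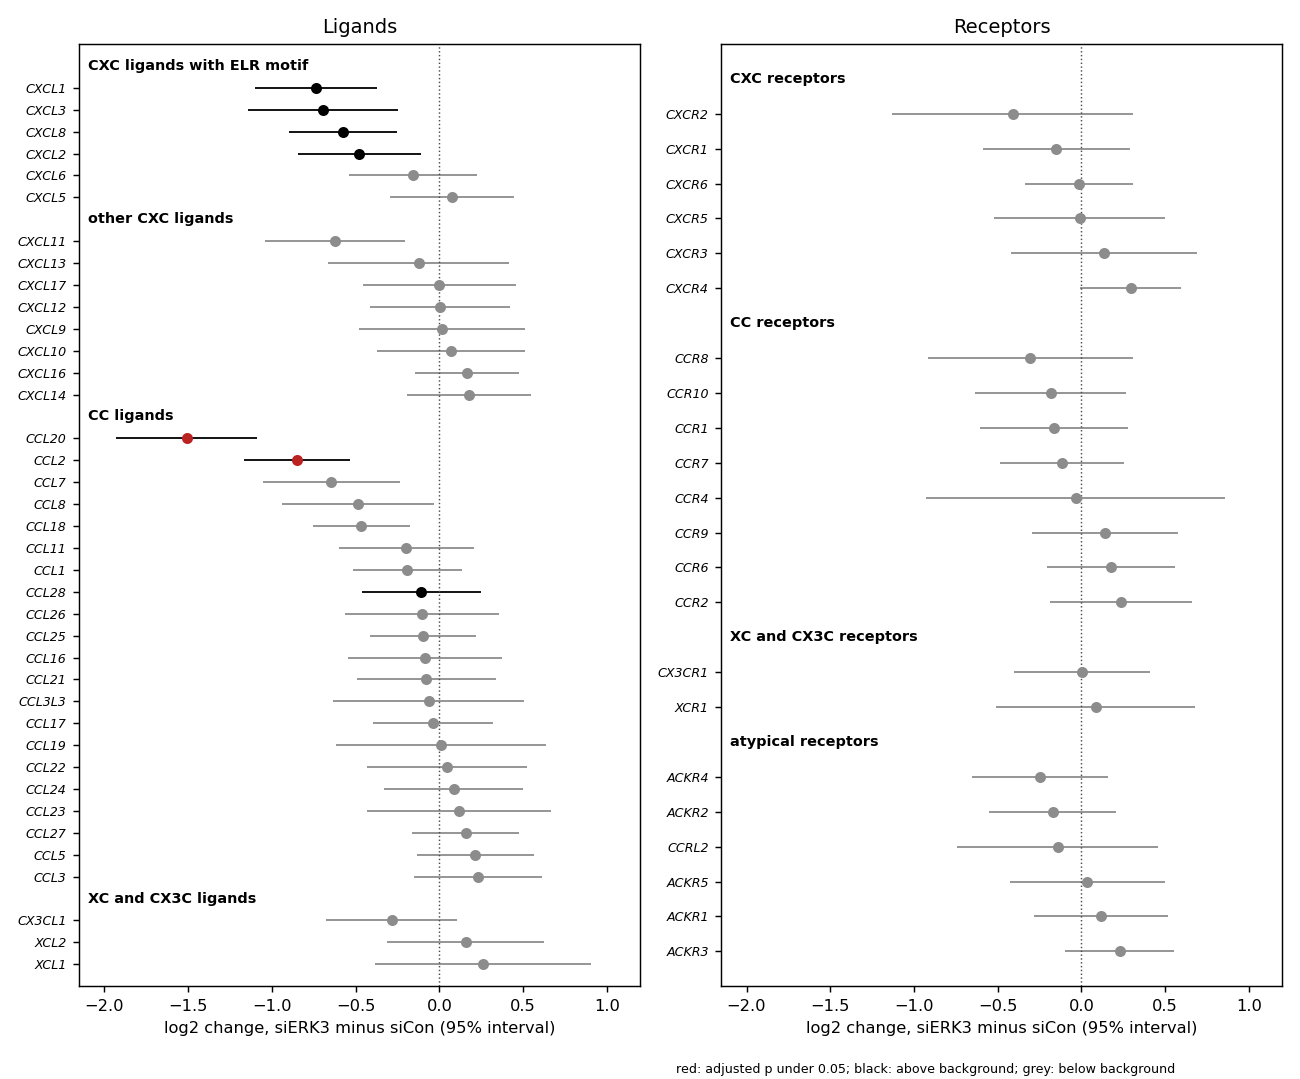
Log2 change, siERK3 minus siCon, with the 95% interval of limma's fit for all 60 members, ligands on the left and receptors on the right. Red points passed the test over all genes, black points lay above background without passing and grey points lay below background; the red points are CCL20 and CCL2, and no receptor is coloured red or black.

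No receptor was detectable at the background level used, 0 of 22, on any array. CXCR2, the receptor of CXCL1, CXCL2, CXCL3 and CXCL8, was at 4.04 ± 0.68 in siCon and 3.62 ± 0.33 in siERK3, and CXCR1, a further receptor of CXCL8, at 4.02 ± 0.18 and 3.87 ± 0.34. CCR2, the receptor of CCL2, was at 5.41 ± 0.20 and 5.65 ± 0.31, CCR6, the receptor of CCL20, at 3.93 ± 0.13 and 4.11 ± 0.27, and CCR10, a receptor of CCL28, at 4.57 ± 0.07 and 4.39 ± 0.40. The 7 ligands above background thus had these receptors below background in the same RNA.

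CXCR4, the CXCL12 receptor linked to metastasis, was at 4.65, 4.56 and 4.57 in siCon and 5.00, 4.74 and 4.91 in siERK3. Its siERK3 values were higher without overlap but all under background, so no fold is given, and the test was not passed (adjusted p = 0.383 in limma). ACKR3, the atypical receptor that scavenges CXCL12, was at 4.50 ± 0.11 and 4.73 ± 0.16. The other atypical receptors, ACKR1, ACKR2, ACKR4, ACKR5 and CCRL2, lay between 2.93 and 5.85. CXCR2 and CCR4 varied most within siCon, where siCon 2 read 4.80 and 4.87 against 3.53 and 3.78 and against 3.28 and 3.19 on the other arrays. SiCon 2 held the highest value of the 6 arrays for 9 of the 22 receptors and for 21.1% of the negative controls.

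Around the chemokine system, 7 lists with 120 entries, 108 of them measured, were examined in the same fit. Their counts stand against shares over all genes of 0.509% called lower and 0.447% called higher, and of 6.50% lower and 6.98% higher at an unadjusted p under 0.05. Of the 23 measured genes of the IL-1, TNF and NF-kB pathway that induces inflammatory chemokines, 2 fell and 0 rose, with 6 lower and 2 higher at an unadjusted p under 0.05 in limma and a median log2 change of 0.03. Interleukin 1 alpha (IL1A), a cytokine that dying cells release, fell 2.36-fold, from 12.21 ± 0.09 to 10.97 ± 0.15 (SD, n = 3 each). IRAK2, a kinase-like adaptor of IL-1 receptors, fell by a point estimate of at least 2.19-fold, from 8.50 to below background on all 3 siERK3 arrays. TNFAIP3, a feedback inhibitor of NF-kB, had a log2 change of -0.81 (adjusted p = 0.0563 in limma), and MYD88, an adaptor of IL-1 and Toll-like receptors, had one of 0.82 in the other direction (adjusted p = 0.0644), without overlap. The IL-1 receptor gene IL1R1 lay below background on all arrays, at 4.93 and 4.65, while 20 of the 23 genes were above background. RELA, an NF-kB subunit, was at 9.98 and 10.02, and IL1B at 11.29 and 11.58. Of the other subunits, NFKB2 was at 12.41 in siCon and 11.87 in siERK3 without overlap (adjusted p = 0.125 in limma). The groups overlapped for NFKB1 (11.05 and 10.82), REL (9.52 and 9.28) and RELB (7.65 and 7.67). NFKBIA, of the same list, was at 12.13 and 11.64 without overlap (adjusted p = 0.180 in limma).

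Among 11 AP-1, C/EBP and STAT factors known from chemokine promoters, 0 passed, with 3 lower and 1 higher at an unadjusted p under 0.05 in limma, and the median was -0.22. The log2 change of the AP-1 component FOSL1 was -0.71 (SE 0.14) and that of STAT3 0.65 (SE 0.17), while IRF1, below background, was at 6.87 and 6.40. Of 6 factors that control the stability of chemokine mRNAs 1 fell and 0 rose, with 1 lower and 2 higher at an unadjusted p under 0.05 in limma. It was ZFP36 (tristetraprolin), which promotes decay of AU-rich transcripts, from 9.18 ± 0.15 to 8.14 ± 0.26, or 2.06-fold. HNRNPD and ZFP36L2, which bind the same kind of element, had log2 changes of 0.44 and 0.41 (adjusted p = 0.223 and 0.313 in limma).

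Of 12 other secreted or surface proteins that inflammatory stimuli induce together with chemokines, 2 fell and 1 rose, where 0.509% of all genes were called lower and 0.447% higher. At an unadjusted p under 0.05 in limma 4 were lower and 1 higher, and the median was -0.18. PTX3, a secreted pentraxin, fell 4.47-fold and IL24 fell 2.29-fold. IL6 rose from 4.45 to 5.50, below background in both groups. ICAM1, a leukocyte adhesion molecule, had a log2 change of -0.82 (adjusted p = 0.0754 in limma). With 1 array left out, PTX3 was called in 6 of 6 fits, IL1A in 4 (lost without siERK3 1 or siERK3 3) and IRAK2 in 2 (those without siCon 2 or siERK3 2). IL24 was called in 1 of them, without siCon 2, and ZFP36 and IL6 in 0.

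Signalling genes downstream of chemokine receptors numbered 30, and 0 passed in limma, with 2 lower and 2 higher at an unadjusted p under 0.05 and a median of 0.03. As shares of the list these counts are near the 6.50% and 6.98% of all genes. For PIK3CB, a phosphoinositide 3-kinase subunit, the log2 change was -0.65 (SE 0.12) at an adjusted p of 0.0520 in limma. GNB1, a G protein beta subunit, had 0.61 (SE 0.14), and DOCK2, below background, was at 5.09 and 5.85. Of 18 genes that trim, shed or present chemokines 0 passed in limma, with 3 lower and 5 higher at an unadjusted p under 0.05, where 6.50% and 6.98% of all genes were, and a median of 0.10. The syndecans SDC4 and SDC3, heparan sulfate carriers that hold chemokines at the surface, had log2 changes of -0.64 and 0.66, and MMP1, a collagenase that can trim chemokines, of 0.87. DPP4, the protease that clips several chemokine ends, lay below background, at 6.33 and 6.16.

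**Figure D4:**
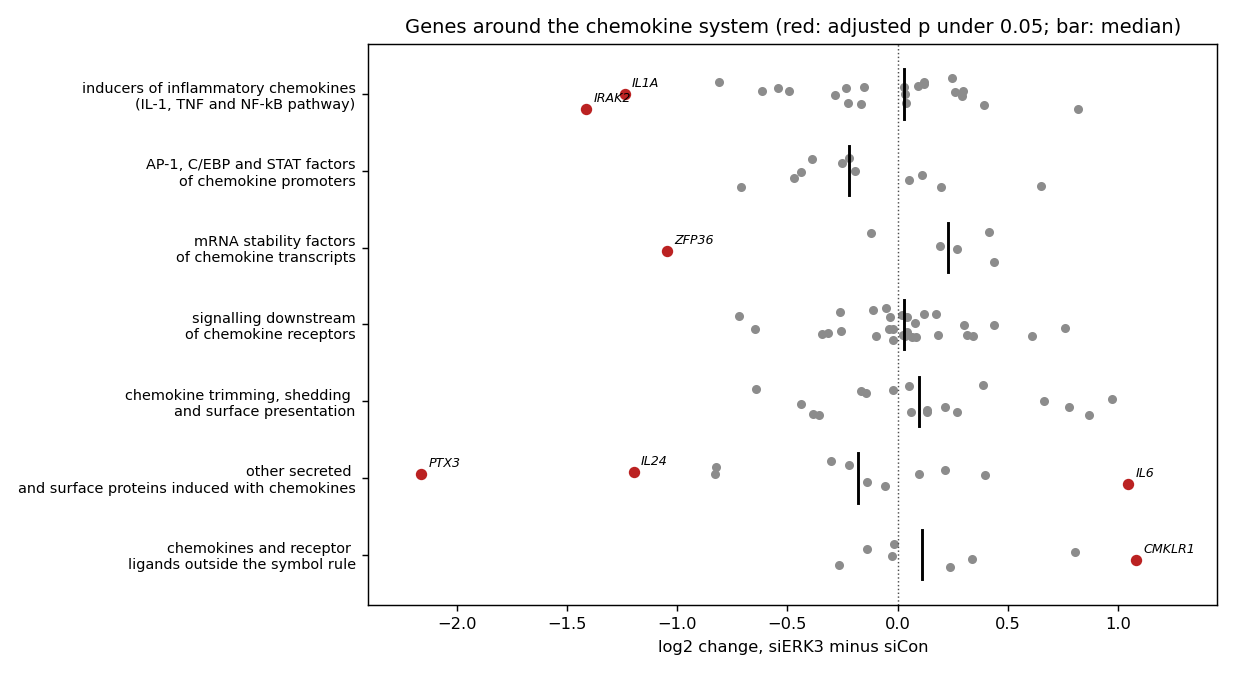
Log2 change, siERK3 minus siCon, of the 108 measured genes in the 7 lists around the chemokine system, 1 point for each gene, with the median of each list as a bar. The red points, which passed the test over all genes, are IL1A, IRAK2, ZFP36, PTX3, IL24, IL6 and CMKLR1.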

How the data were processed

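The authors deposited log2 values for 24351 probe sets on each array. How they were computed and normalized was not given in the sources used here, and that the scale is log2 was inferred from its range. The zero point and any stretch of the scale are unknown, and folds would depend on a stretch. The platform annotation named 17709 probe sets with 1 gene each, and the brightest probe set per gene by mean left 17687 genes. No value was filtered and no pseudocount was used. limma 3.58.1 (R 4.3.3) fitted siERK3 minus siCon without covariates, with default eBayes moderation and Benjamini-Hochberg adjustment over all genes. The number of arrays limits the precision. "At least N-fold" sets the siCon mean against the higher of background level and own value on each siERK3 array. It is a point estimate that leaves out sampling error. The script was tested on simulated data. Genes with signal above background, or past the threshold, were described in full, and up to 3 genes with the smallest p from each list were named. RELA, NFKB1, NFKB2, REL, RELB, NFKBIA, IL1B, IL1R1, MYD88, ICAM1, DPP4, MIF, CKLF and the cell type markers were named after their values were seen. Promoters came from RefSeq, with repeated windows of a gene counted once, and 44 of the 60 members matched. Members and lists were chosen with earlier results of these data known. The alternatives were other normalizations, filters and variance models, array weights, a block for the replicate number, arrays left out 1 at a time and other background levels; leaving out siCon 2 and siERK3 3 together was chosen after seeing the data.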

Additional observations from a re-analysis of the deposited data

How the results depend on the processing

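CXCL1, CXCL2, CXCL3, CXCL8, CCL2 and CCL20 stayed lower in siERK3 under every alternative run. For most alternatives this was fixed in advance. Leaving out or weighting arrays could not change the sign, since the groups of these genes did not overlap. The filters, variance models and replicate block left their log2 changes as they were. Only the other normalizations could have changed the direction. CCL28 turned to 0.016 without siCon 2 and ranged from -0.20 to 0.016 with 1 array left out. The number of genes called was 365 of those above the 30th percentile of mean level, 581 of those above the median, 722 with a mean-variance trend and robust eBayes, 8 with no moderation of the variance, 33 with the replicate block and 7 without siCon 2 and siERK3 3 together, against 169. The number of chemokine and receptor genes called was 4 above the median of mean level, 4 with the trend and robust eBayes, 0 with no moderation, 1 (CCL20) with the replicate block and 0 without siCon 2 and siERK3 3 together, against 2. For the genes of the 7 lists it was 15, 20, 25, 1, 2 and 1 under the 30th percentile, the median, the trend with robust eBayes, no moderation, the replicate block and both arrays left out, against 7. With 1 array left out, 23 to 60 genes, 0 to 1 members and 1 to 5 list genes were called. With the 99th percentile of the negative controls as the background level, 3 members lay above it, against 7. The deviations of same-numbered arrays correlated at 0.05, -0.12 and -0.04, so the numbers are not taken to pair the samples, and a call lost under the block is not a weaker effect. Fewer genes were tested under the filters and fewer arrays entered the left-out fits; other causes were not tested.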

Other observations

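Outside the members, 8 genes for related ligands and receptors were measured, and 1 rose. CMKLR1, the receptor of the chemoattractant chemerin, rose from 4.52 ± 0.23 to 5.60 ± 0.23 (SD, n = 3 each; adjusted p = 0.0313 in limma), with all values below background. It was called without siCon 2 and in no other fit that left out 1 array (highest adjusted p 0.128). MIF, a cytokine that also binds CXCR2 and CXCR4, was above background at 12.79 ± 0.03 and 13.02 ± 0.07, without overlap (adjusted p = 0.469 in limma). CKLF, a chemokine-like factor, was above background at 11.04 ± 0.04 and 10.90 ± 0.31.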
